A study of Mus musculus with 14 samples.

Results

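Ifngr1, the gene of the receptor chain that binds interferon-gamma, was measured in T cells sorted from mouse tumours after PD-L1 blockade. It is 1 of 25124 genes in the deposited table and 1 of the 13434 with enough reads to test. It was chosen by its measured level, which was higher under anti-PD-L1 than under the isotype antibody in all 3 populations of these data, so that contrast is given here as a description, with no test. Ifngr1 is NCBI gene 15979 and GENCODE gene ENSMUSG00000020009.13, on the plus strand of chromosome 10 from 19591949 to 19610229 (GRCm38.p6, the same build as mm10). Its transcript Ifngr1-201 has 7 exons and 2112 bases, and no other annotated gene overlaps it.

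Interferon-gamma is a cytokine of activated T and NK cells. Its receptor joins Ifngr1, which binds the cytokine, to Ifngr2, the chain needed for signalling. The kinase Jak1 sits on Ifngr1 and Jak2 on Ifngr2, and the signal they start switches on target genes such as Irf1, the interferon-inducible GTPases and the MHC class I machinery. Socs1 is induced by the signal and inhibits the kinases. In T cells the amount of Ifngr2 is known to vary and to limit the response, and in mouse tumours interferon-gamma acting on Tregs, the Foxp3-expressing T cells that restrain other T cells, has been tied to weaker suppression.

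All groups came from female C57BL/6 mice of 8 to 12 weeks that carried the GATIR Foxp3Cre-rfp Gata3Cre-yfp alleles, in which Foxp3 drives a red fluorescent protein, and AE17-OVA tumours under the skin. AE17 is a mouse mesothelioma line, here with ovalbumin as a model antigen. On day 10 each mouse was injected intraperitoneally with 200 µg of the antibody MIH5, which blocks PD-L1, the partner of the inhibitory receptor PD-1, or of the isotype antibody 2A3, and tumours were taken at day 13, which the labels word both as that day and as a time after treatment. A sort by CD4, CD25, the red protein and PD-1 gave PD-1+ Tregs (3 anti-PD-L1 and 2 isotype libraries), PD-1- Tregs (2 and 2) and CD4 T cells (3 and 2), 8 anti-PD-L1 and 6 isotype libraries in all. The animals or pools behind the replicates are unnamed in the labels, so p-values reflect how far these libraries differ, which may be technical.

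Total counts ran from 10638800 to 15030800 per library. Of the libraries, 3 held 2767 to 2966 counts of Y-linked genes, against 0 or 1 in each of the other libraries, although the labels call all mice female. They are replicate 3 of anti-PD-L1 PD-1+ Tregs, replicate 2 of anti-PD-L1 PD-1- Tregs and replicate 3 of anti-PD-L1 CD4 T cells, so all are treated, and theirs are the only titles whose bracketed name ends in the number 3. Values without them are given below. Foxp3 stood at 31.1, 157 and 45.7 CPM (counts scaled to 1e+06 of the TMM-adjusted library size) in anti-PD-L1 PD-1+ Tregs and at 36.6, 27.9 and 55.0 CPM in anti-PD-L1 CD4 T cells, so by this gene those populations overlapped, while Il2ra, the gene of CD25, was higher in every Treg library than in every CD4 library.

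Ifngr1 was among the most abundant messages of treated cells in all 3 populations. In PD-1+ Tregs its level was 1970.5, 2007 and 2598 CPM under anti-PD-L1, against 599 and 549 CPM under isotype. In PD-1- Tregs it was 1836 and 2600 CPM under anti-PD-L1, against 542 and 561 CPM under isotype. In CD4 T cells it was 1475, 1996 and 1840.3 CPM under anti-PD-L1, against 433 and 400.5 CPM under isotype. The lowest treated library of any population, in CD4 T cells, lay far above the highest isotype library, in PD-1+ Tregs. Of the genes tested, 7.69% for PD-1+ Tregs, 12.5% for PD-1- Tregs and 12.5% for CD4 T cells had every treated library above every isotype library, and 0.625% had this in all 3. In bulk libraries fewer expressing cells and less RNA per cell cannot be told apart.

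**Figure D1:**
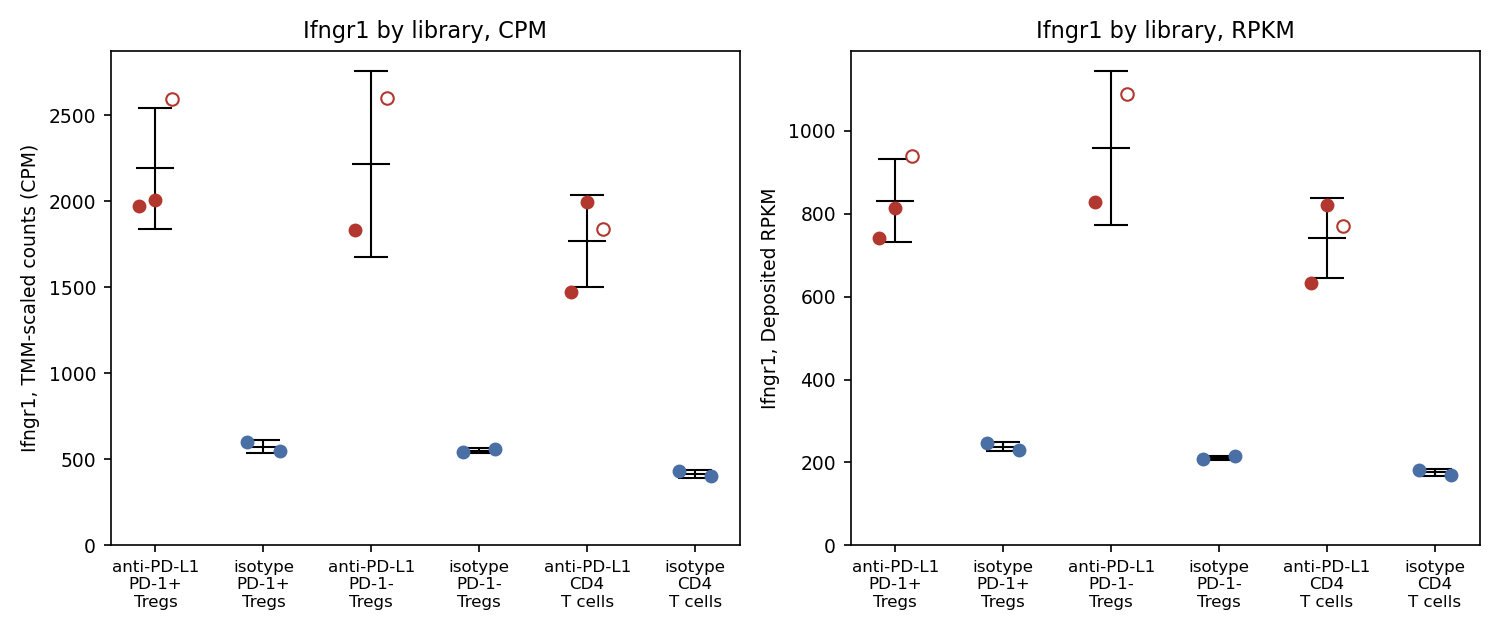
Ifngr1 in each of the 14 libraries, in CPM and in RPKM, both axes starting at 0. Points are libraries, open points the 3 with Y-linked reads, and bars the group mean ± SD. The 8 anti-PD-L1 libraries sit between 1475 and 2600 CPM and the 6 isotype libraries between 400.5 and 599 CPM.

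On the RPKM scale, which also divides by transcript length, Ifngr1 averaged 832 ± 99.3 RPKM in anti-PD-L1 and 239 ± 11.0 RPKM in isotype PD-1+ Tregs (SD, n = 3 and 2). In PD-1- Tregs the means were 959 ± 186 RPKM under anti-PD-L1 and 211 ± 5.19 RPKM under isotype (n = 2 and 2), and in CD4 T cells 742 ± 97.4 RPKM under anti-PD-L1 and 176 ± 8.76 RPKM under isotype (n = 3 and 2). By RPKM the gene ranked 37th to 78th of all genes in treated libraries and 350th to 495th in isotype libraries. By raw counts it held 22380 to 30903 counts, or 0.149% to 0.279% of a library, in treated libraries, against 5531 to 7058 counts, or 0.0414% to 0.0616%, in isotype libraries. Both scales therefore give the same order of arms. The count-to-RPKM ratio of Ifngr1, relative to each library's typical ratio, spread by 1.01-fold over the libraries, the same as for the median of 3581 genes compared.

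The mean CPM under anti-PD-L1 was 3.82 times that under isotype for PD-1+ Tregs, 4.02 times for PD-1- Tregs and 4.25 times for CD4 T cells. In the edgeR fit the log2 change was 1.93 ± 0.21 (SE) for PD-1+ Tregs, 2.01 ± 0.22 for PD-1- Tregs and 2.09 ± 0.21 for CD4 T cells. Without the 3 libraries with Y-linked reads the changes were 1.76, 1.71 and 2.05, and PD-1- Tregs then had 1 treated library, at 1836 CPM. That library is the lower of the pair, and the one left out, at 2600 CPM, was the highest of all.

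Replicates of Ifngr1 lay about as close as those of other genes of its level. With all libraries in, the treated groups spread more than the isotype groups. The coefficient of variation of CPM was 16.1%, 24.3% and 15.1% in anti-PD-L1 PD-1+ Tregs, PD-1- Tregs and CD4 T cells, against 6.22%, 2.35% and 5.47% in their isotype groups. Without the libraries with Y-linked reads it was 1.28% in anti-PD-L1 PD-1+ Tregs, below that of isotype, and 21.2% in anti-PD-L1 CD4 T cells. Anti-PD-L1 PD-1- Tregs then had 1 library and so no spread. The spread within groups on the log2 scale was 0.21 for Ifngr1, against a median of 0.26 over the 136 genes within 2-fold of its mean level of 1386 CPM, and 36 of the other 135 were tighter.

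Many genes had larger fitted rises, while none of those within 2-fold of Ifngr1 in level did. Larger rises than that of Ifngr1 were fitted for 1630 of 13434 genes within PD-1+ Tregs, 2384 within PD-1- Tregs and 416 within CD4 T cells. With only genes whose mean reached 10 CPM in either arm, these were 693 of 9519, 1621 of 9013 and 48 of 9273. Where an arm holds no or few counts such fitted values depend on the prior count. Among the other 135 genes within 2-fold of its level the number with a larger rise was 0 in each population. Their 5th to 95th percentile of log2 change ran from -0.33 to 1.17 for PD-1+ Tregs, from -1.84 to 1.29 for PD-1- Tregs and from -0.31 to 0.86 for CD4 T cells. Ranked by the smallest of its 3 changes, Ifngr1 was number 12 of 8834 genes with a mean of at least 10 CPM. Ahead of it were 3 Y-linked genes (Ddx3y, Eif2s3y and Uty), the cytokines Il10 and Ccl1, the transcription factor Runx2, the homing receptor Gpr15, and Edaradd, Neb, Chst11 and Aldoc. The most abundant of them, Aldoc, averaged 36.1 CPM over the libraries. As a rise in all 3 populations chose Ifngr1, its place in these comparisons is a description.

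**Figure D2:**
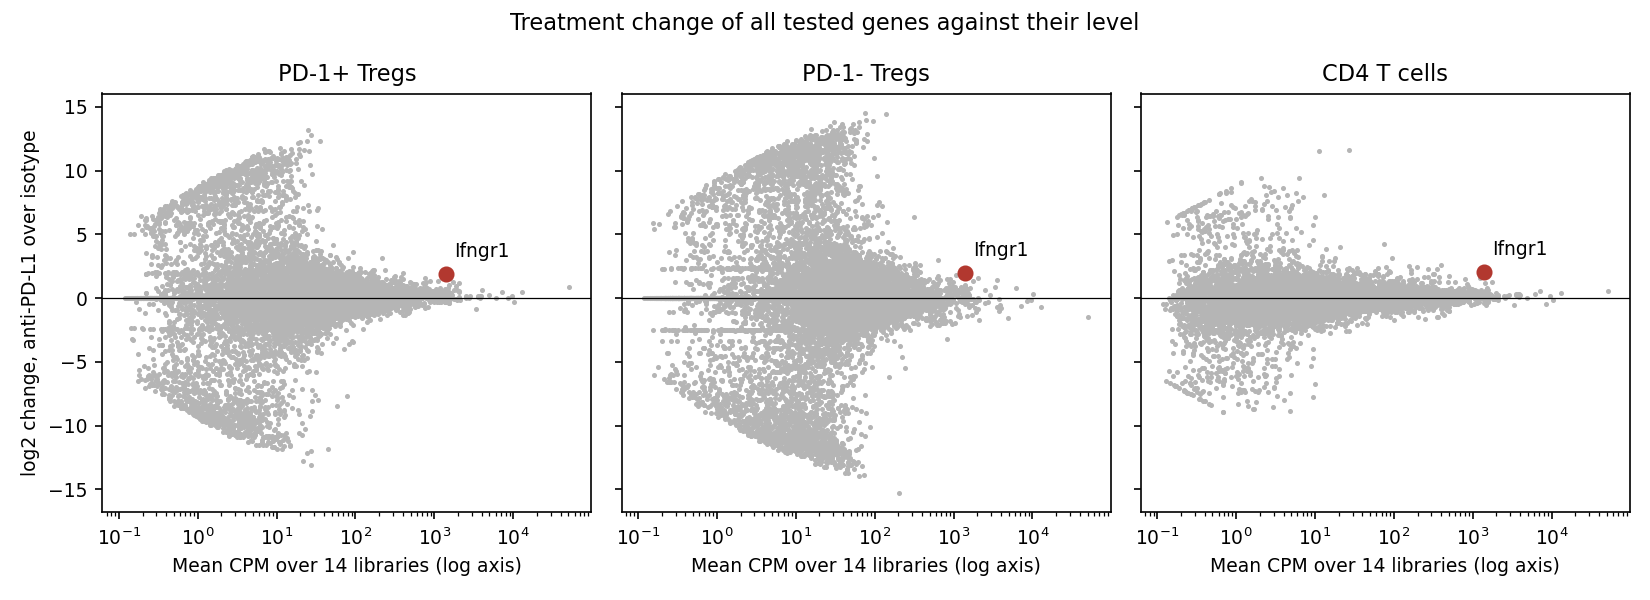
Log2 change, anti-PD-L1 over isotype, of all 13434 tested genes (vertical axis) against the mean CPM over 14 libraries (log axis), with 1 panel a population. Ifngr1, in red, stands at the upper edge of the genes of its level in all 3 panels, at 1.93, 2.01 and 2.09.

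Since a rise in every population chose Ifngr1, nothing is read from its place among the calls. Of the genes tested, 0.00744% passed an adjusted p of 0.05 in edgeR upward for PD-1+ Tregs, 1.38% for PD-1- Tregs and 0.00744% for CD4 T cells. Ordered by the largest of their 3 adjusted p, the genes after Ifngr1 were Id2, Tigit and Ly6a. This place does not mean that they nearly passed throughout. Ly6a had an edgeR adjusted p of 0.584 for CD4 T cells and 0.163 for PD-1+ Tregs, far from the threshold. It passed for PD-1- Tregs alone (edgeR adjusted p = 0.0112). Id2, an inhibitor of E-protein transcription factors, had log2 changes of 1.24 for PD-1+ Tregs, 1.48 for PD-1- Tregs and 1.71 for CD4 T cells. Tigit, an inhibitory receptor, had 1.18, 2.14 and 1.87, and Ly6a, the surface protein Sca-1, 1.64, 1.70 and 1.26. All of these values except that of Tigit in PD-1- Tregs were below those of Ifngr1.

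The fitted treatment changes differed between the 3 populations by less than the error of the fit. Because Ifngr1 was chosen for a rise in each of them, this likeness is a description. The change in PD-1+ Tregs minus that in PD-1- Tregs was -0.075 ± 0.28 on the log2 scale (95% interval -0.69 to 0.54). Against CD4 T cells the difference was -0.15 ± 0.27 for PD-1+ Tregs (-0.74 to 0.43) and -0.080 ± 0.28 for PD-1- Tregs (-0.70 to 0.54). The intervals reach to either side of 0 by several times the differences themselves, so equality is not shown.

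Macrophages express Ifngr1 strongly, and other cells of a tumour can stay in a sort, so their markers were summed in each library. The 16 macrophage and monocyte markers summed to 4409, 4804 and 5656 CPM in anti-PD-L1 PD-1+ Tregs, against 5522 and 8392 CPM under isotype. In PD-1- Tregs the sum was 534 and 878 CPM under anti-PD-L1, against 1055 and 428 CPM under isotype, and in CD4 T cells 4130.0, 2894 and 7700 CPM under anti-PD-L1, against 4266 and 4982 CPM under isotype. The arms overlapped in every population. PD-1- Tregs had the lowest sums. There C1qa and Fcgr1 were at 0 in both arms, but other markers were present. Lyz2 stood at 202 and 385 CPM under anti-PD-L1 against 239 and 137 CPM under isotype. Cd68 stood at 65.7 and 80.7 CPM against 302 and 100 CPM. The part of these cells in the Ifngr1 change was not tested.

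**Figure D3:**
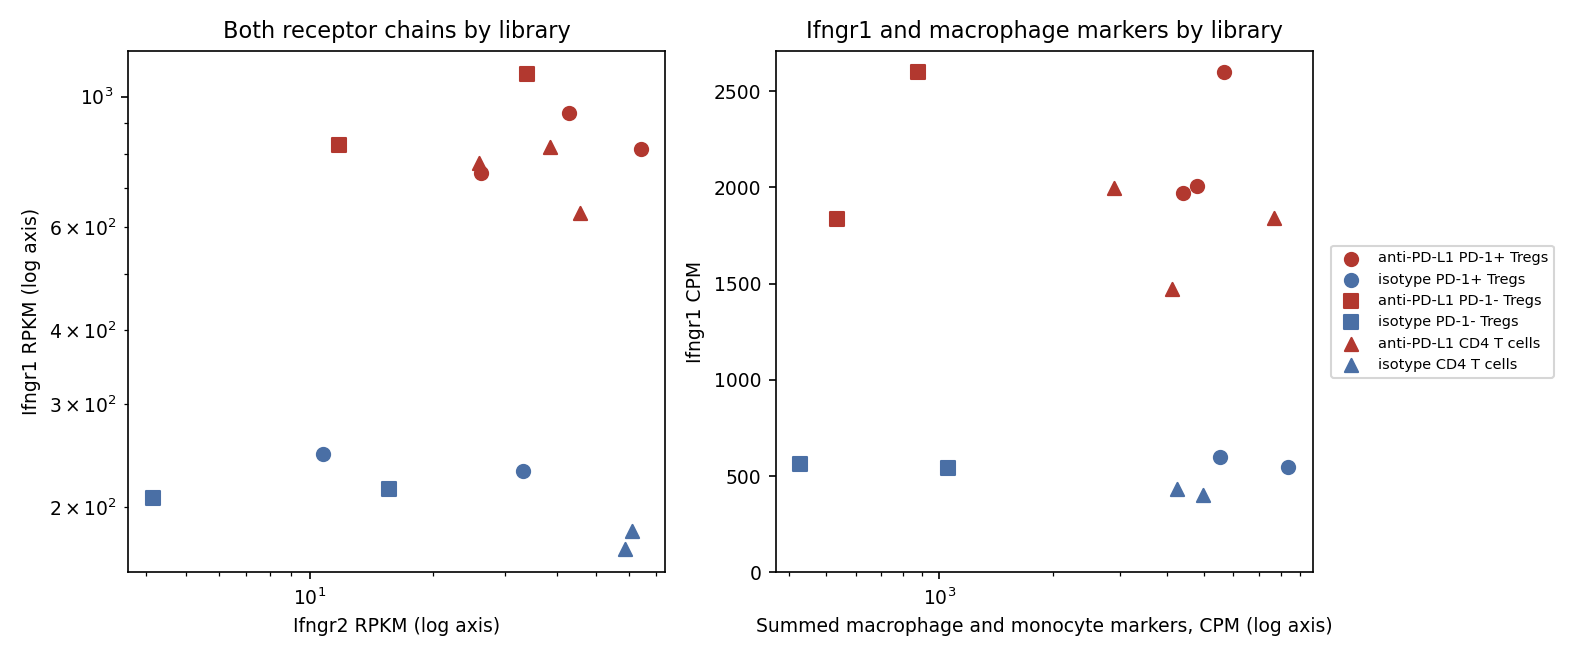
Left, Ifngr1 RPKM against Ifngr2 RPKM in each library, on log axes; right, Ifngr1 CPM against the summed macrophage and monocyte markers (log axis). Colours and symbols mark the 6 groups. Every treated library is above every isotype library in Ifngr1, so the right panel would show this order along any horizontal axis. The part of macrophages was not tested. The Ifngr2 values of the arms overlap in Tregs and separate, lower in treated libraries, in CD4 T cells.

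Other marker sums moved with the arms in some populations. The 10 B cell markers summed to 101, 33.1 and 38.5 CPM in anti-PD-L1 PD-1+ Tregs against 306 and 556 CPM under isotype, and to 63.4, 98.4 and 84.7 CPM in anti-PD-L1 CD4 T cells against 268 and 279 CPM under isotype. In PD-1- Tregs these sums overlapped, at 411 and 42.1 CPM under anti-PD-L1 against 96.3 and 102 CPM under isotype. The sum of the 12 dendritic cell and MHC class II markers was lower in anti-PD-L1 PD-1- Tregs than in isotype PD-1- Tregs, at 11245 and 9054 CPM against 14697 and 16139 CPM under isotype, and overlapped in the other populations, where they ran from 19433 to 49886 CPM under anti-PD-L1 against 15770.0 to 34851 CPM under isotype. The 10 CD8 T and NK cell markers stayed under 100 CPM in every library, with arms that overlapped in both Treg populations and in CD4 T cells. The 13 mesothelial tumour and stroma markers were lower in treated CD4 T cells, at 247 to 893 CPM against 1135 to 1581 CPM under isotype, and overlapped in Tregs. The part of these markers in the Ifngr1 change was not tested either.

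Library composition also differed between the arms, in directions that varied by population. Actb took 5.88% to 7.27% of counts in anti-PD-L1 PD-1+ Tregs against 3.60% to 4.26% under isotype, but 2.74% and 3.16% in anti-PD-L1 PD-1- Tregs against 6.53% and 8.71% under isotype. In CD4 T cells it took 3.85% to 6.67% under anti-PD-L1 against 3.24% and 3.84% under isotype. The ribosomal RNA precursor Rn45s took 0.0816% to 0.146% in anti-PD-L1 PD-1+ Tregs against 0.209% and 0.255% under isotype, and 0.367% to 0.586% in anti-PD-L1 CD4 T cells against 0.691% and 0.799% under isotype. In PD-1- Tregs it ran the other way, at 0.318% and 0.368% under anti-PD-L1 against 0.130% and 0.213% under isotype. Pdcd1, the gene of PD-1, was also higher in every treated library than in every isotype library of its population, at 125 to 246 CPM in anti-PD-L1 against 85.6 and 115 CPM in isotype PD-1+ Tregs. In PD-1- Tregs it was 45.7 and 46.5 CPM under anti-PD-L1 against 21.7 and 39.9 CPM under isotype, and in CD4 T cells 145 to 275 CPM under anti-PD-L1 against 45.4 and 85.3 CPM under isotype. The part of these shares and of Pdcd1 in the Ifngr1 change was not tested.

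Between populations, which the choice of Ifngr1 did not use, the level was somewhat higher in both Treg populations than in CD4 T cells in each arm, and no difference passed the adjusted threshold. Under anti-PD-L1 the order of mean CPM was PD-1- Tregs (2218 ± 539.8), PD-1+ Tregs (2192 ± 352) and CD4 T cells (1770.2 ± 267), with libraries that overlapped between all neighbours. Under isotype it was PD-1+ Tregs (574 ± 35.7), PD-1- Tregs (552 ± 13.0) and CD4 T cells (417 ± 22.8), and the CD4 libraries lay below all Treg libraries, while the Treg types overlapped. The populations differed in composition too. Macrophage and monocyte markers summed to 428 to 1055 CPM in PD-1- Tregs against 2894 to 8392 CPM in the other populations. Genes detected were 8027 to 8801 against 9662 to 14535. The part of these in the population differences was not tested.

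With both arms weighted equally, PD-1+ Tregs exceeded CD4 T cells by 0.39 ± 0.14 on the log2 scale (95% interval 0.091 to 0.68; edgeR adjusted p = 0.321, where 0.35% of genes passed). PD-1- Tregs exceeded CD4 T cells by 0.37 ± 0.14 (0.058 to 0.67; edgeR adjusted p = 0.126, 3.6% passed). The Treg types differed by 0.020 ± 0.14 (-0.29 to 0.33; edgeR adjusted p = 1.00, 4.28% passed). Exact two-sided permutation of the population labels within each arm gave p = 0.0333, 0.0833 and 0.833 for these pairs, which became 0.1, 0.125 and 0.833 over the 3 pairs. The smallest p this design allows is 0.0167. Ifngr1 was thus not told apart between populations after adjustment, though the edgeR intervals of both comparisons with CD4 T cells lie above 0. DESeq2 gave 0.46 for PD-1- Tregs over CD4 T cells, which passed (adjusted p = 0.0164), and edgeR without the 3 libraries with Y-linked reads gave 0.21. The sign between the Treg types changed with the scaling, and library sizes set by T cell genes raised PD-1+ Tregs over CD4 T cells to 0.78, with a shift of 0.39 in the median gene.

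The second receptor chain did not follow Ifngr1 evenly. Ifngr2 stood at 69.4, 158 and 119 CPM in anti-PD-L1 PD-1+ Tregs against 26.2 and 78.6 CPM under isotype. In PD-1- Tregs it stood at 26.2 and 80.4 CPM under anti-PD-L1 against 10.8 and 40.5 CPM under isotype, and in CD4 T cells at 106, 93.6 and 61.6 CPM under anti-PD-L1 against 144 and 138 CPM under isotype. Arms overlapped in both Treg populations and separated in CD4 T cells, where treated libraries were lower. The log2 changes were 1.14 ± 0.75, 1.05 ± 0.80 and -0.70 ± 0.71 in PD-1+ Tregs, PD-1- Tregs and CD4 T cells (edgeR adjusted p = 0.776, 0.548 and 1.00), so none passed.

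Ifngr1 was the more abundant chain in every library. The ratio of Ifngr1 to Ifngr2, both in RPKM, was 13.9, 21.3 and 29.8 in anti-PD-L1 CD4 T cells, against 2.99 and 2.89 under isotype. In PD-1+ Tregs it was 28.3, 12.7 and 21.9 under anti-PD-L1, against 22.9 and 6.96 under isotype, and in PD-1- Tregs 70.0 and 32.2 under anti-PD-L1, against 50.1 and 13.8 under isotype. The arms separated in CD4 T cells and overlapped in both Treg populations. Since Ifngr1 is in the ratio, its difference between arms is a description.

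The ligand Ifng was low in all sorted cells. It stood at 58.4, 44.3 and 50.9 CPM in anti-PD-L1 CD4 T cells against 18.1 and 9.05 CPM under isotype, with no overlap, and its log2 change of 1.91 ± 1.98 did not pass (edgeR adjusted p = 1.00). In PD-1+ Tregs it was 6.52, 18.6 and 11.4 CPM under anti-PD-L1 against 6.37 and 19.5 CPM under isotype. In PD-1- Tregs 1 treated library held 389 counts, and the other treated and both isotype libraries held 0, which at a floor of 3 counts allows up to 0.252 CPM in the treated library and 0.272 and 0.279 CPM in the isotype libraries. Floors cover counting error only.

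Of the 14 genes of the receptor and its proximal signalling, Ifngr1 left out, 8 of 14 within PD-1+ Tregs, 9 within PD-1- Tregs and 5 within CD4 T cells had a change above 0. The edgeR threshold was passed upward by 0, 1 and 0 of them, and downward by none in each (in either direction, 0.0149% of all genes passed for PD-1+ Tregs, 2.66% for PD-1- Tregs and 0.00744% for CD4 T cells). The median log2 change of the list was 0.46, 0.44 and -0.17, against 0, 0 and -0.013 over all tested genes. In either direction, the counts at an unadjusted p under 0.05 were 0, 3 and 0, with DESeq2 0, 2 and 0, and with limma-voom 0, 1 and 0. The 2 in DESeq2 were Socs1 and Ifng, and in PD-1- Tregs Ifng had counts in 1 treated library only. Over all genes, the shares in PD-1+ Tregs, PD-1- Tregs and then CD4 T cells came to 8.06%, 20.1% and 1.15% at the unadjusted p, 4.97%, 23.6% and 0.425% in DESeq2, and 1.14%, 5.08% and 0.00744% in limma-voom.

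Socs1, the inhibitor of the receptor's kinases, was the gene that passed in edgeR. In PD-1- Tregs it stood at 438 and 402 CPM under anti-PD-L1 against 107 and 43.5 CPM under isotype, a log2 change of 2.48 ± 0.50 (edgeR adjusted p = 0.0207, and 0.705 with only the PD-1- libraries in the fit). In the other populations the arms overlapped, with changes of -0.33 ± 0.43 for PD-1+ Tregs and 0.31 ± 0.44 for CD4 T cells, which did not pass. The kinases, the Irf factors and the phosphatases had no passing change. Irf1, a transcription factor and itself a target of the signal, had changes of 0.93 ± 0.49, 0.43 ± 0.52 and -0.55 ± 0.47.

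The kinase Jak1, which binds Ifngr1, had changes of 0.49 ± 0.25, -0.45 ± 0.27 and -0.12 ± 0.24, and Jak2, which binds Ifngr2, 2.48 ± 1.17, -1.43 ± 1.18 and 0.35 ± 1.07. Among the other listed genes were the factors Irf8 (0.61, 1.56 and 0.68) and Irf9 (0.46, 0.078 and -0.33), and the inhibitor Socs3 (-0.87, -0.059 and -0.044). The phosphatases Ptpn2 (1.10, -1.19 and 0.032), Ptpn6 (-0.27, -0.029 and -0.22) and Ptpn11 (-1.32, 1.49 and -0.32) and the SUMO ligase Pias1 (-0.24, 1.79 and -0.23) were also on the list.

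**Figure D4:**
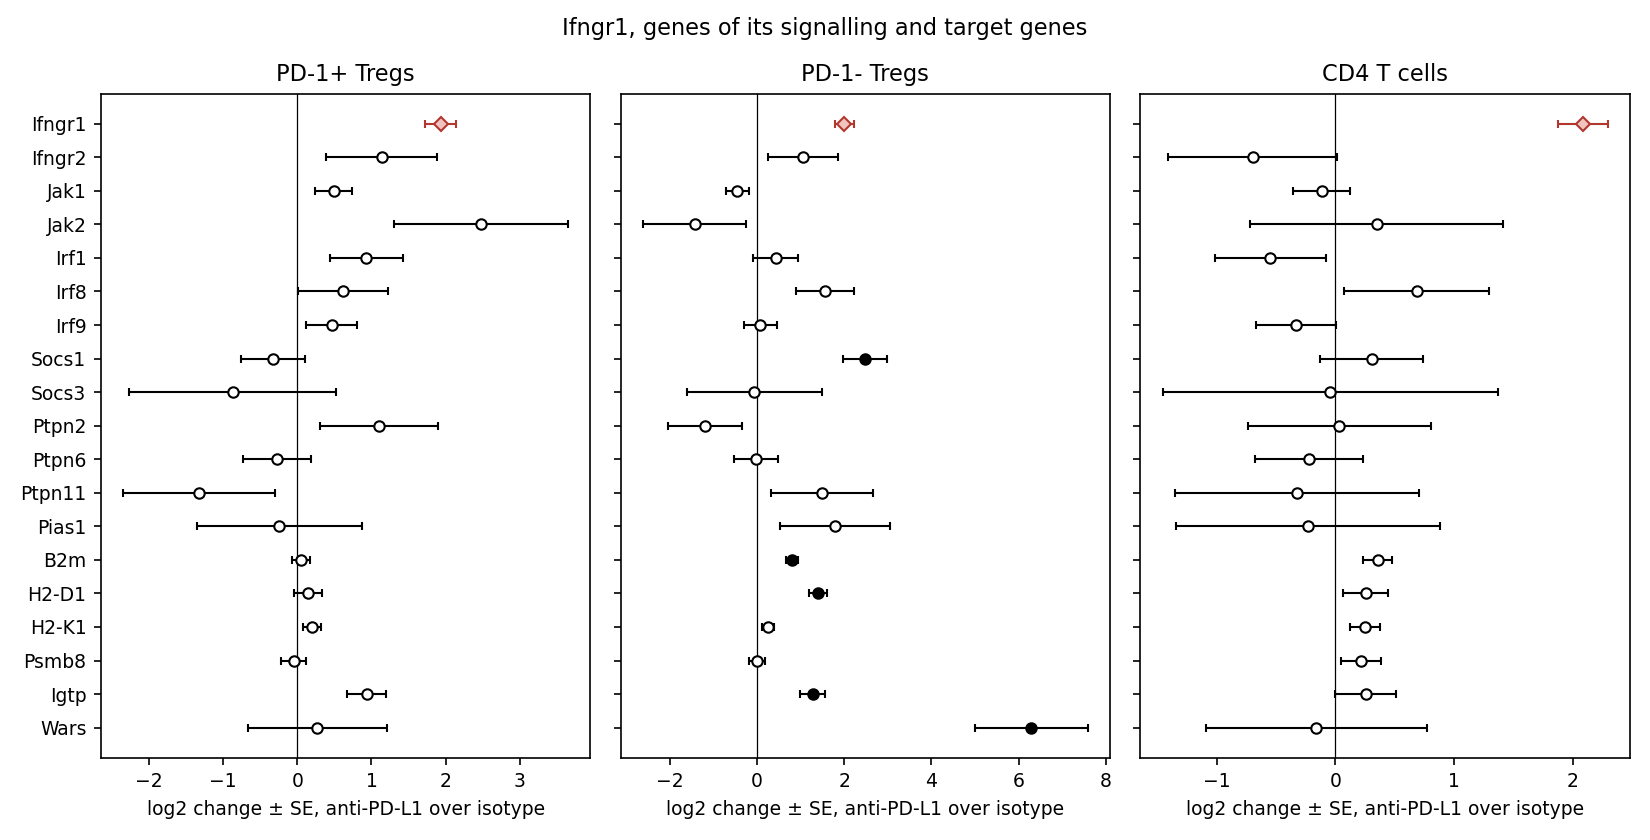
Log2 change ± SE, anti-PD-L1 over isotype, of Ifngr1 (red diamond, a description with no test), of genes of its signalling and of its target genes, with 1 panel a population and an own scale in each. Filled black points passed the edgeR threshold, and Ifng, at 0 in isotype PD-1- Tregs, is not drawn. The filled points are Socs1, Igtp, B2m, H2-D1 and Wars in PD-1- Tregs.

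Of 36 interferon-gamma target genes listed, 34 passed the filter on low counts; Cxcl11 and Ido1 did not. Of these 34, 21 within PD-1+ Tregs, 22 within PD-1- Tregs and 26 within CD4 T cells had a change above 0, with medians of 0.29, 0.43 and 0.17. The edgeR threshold was passed upward by 0, 4 and 0 of them, where 0.00744%, 1.38% and 0.00744% of all genes passed upward. In either direction, the counts at an unadjusted p under 0.05 were 6, 10 and 1, with DESeq2 3, 10 and 0, and with limma-voom 0, 4 and 1. They are to be read against the shares over all genes given for each tool above. The DESeq2 calls in PD-1- Tregs include Parp14, which fell (log2 change -2.86, DESeq2 adjusted p = 7.5e-08), while the other targets called there rose. In PD-1+ Tregs the genes called by DESeq2 were the GTPases Gbp7, Igtp and Iigp1.

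The target genes that rose in PD-1- Tregs were Igtp, B2m, H2-D1 and Wars. B2m, the light chain of MHC class I, stood at 8227 and 7545 CPM under anti-PD-L1 against 4458 and 4592 CPM under isotype (log2 change 0.80 ± 0.13; edgeR adjusted p = 0.00885). H2-D1, a heavy chain of MHC class I, stood at 5897 and 4123 CPM under anti-PD-L1 against 1925 and 1863 CPM under isotype (1.40 ± 0.21; edgeR adjusted p = 0.00528), though reads may be shared with its close copies. Igtp, an interferon-inducible GTPase, stood at 846 and 1080.2 CPM under anti-PD-L1 against 462 and 331 CPM under isotype (1.28 ± 0.28; edgeR adjusted p = 0.0332).

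Wars, the tryptophanyl-tRNA synthetase, held 2462 and 1063 counts in anti-PD-L1 PD-1- Tregs against 36 and 1 under isotype, a log2 change of 6.29 ± 1.29 (edgeR adjusted p = 0.0227). Isotype libraries of PD-1+ Tregs held 622 and 1097 counts and those of CD4 T cells 945 and 788, so the low values were particular to isotype PD-1- Tregs. The PD-1- Treg libraries also had the fewest genes detected, 8027 to 8801, against 9662 to 14535 in the others. H2-K1, another heavy chain, and Psmb8, an immunoproteasome subunit, are also abundant targets; their changes were 0.19, 0.25 and 0.25, and -0.048, 0.0022 and 0.21, and did not pass. With only the PD-1- libraries in the fit none of these genes passed (edgeR adjusted p = 0.705 for each), limma-voom did not call B2m and H2-D1, and without the libraries with Y-linked reads Igtp did not pass (edgeR adjusted p = 0.103). In the other populations no target passed. Whether the treatment change of a pathway gene differed between populations was tested for the 48 genes of both lists. H2-D1 was the 1 that passed (none did in 9 of the 14 fits with 1 library left out), in PD-1+ minus PD-1- Tregs, a comparison in which 1.46% of all genes passed, against 0% for PD-1+ Tregs minus CD4 T cells and 0.975% for PD-1- Tregs minus CD4 T cells.

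Other cytokine receptors did not pass the adjusted edgeR threshold in any population, while other tools called some. Of 28 listed, 23 were tested, among them 5 of the class II family to which Ifngr1 belongs. The edgeR count was 0 in each population. In either direction, 7, 6 and 3 had an unadjusted p under 0.05, where 8.06%, 20.1% and 1.15% of all genes did. DESeq2 called 2, 6 and 2 of the receptors, against 4.97%, 23.6% and 0.425% of all genes. With limma-voom the counts were 0, 1 and 0, against 1.14%, 5.08% and 0.00744%. The median log2 change was 0.24, 0 and 0.49 in the class II family and 0.40, 1.15 and 0.37 in the other receptors, against 0, 0 and -0.013 over all tested genes. The most abundant by mean RPKM were the IL-2 receptor chains and Il7r. Il2rg, the common gamma chain, changed by 0.67, -0.74 and 0.28, Il2rb by 1.00, 1.28 and 1.47, Il2ra by 0.16, -0.59 and 2.27, and Il7r by 3.12 ± 1.04, 1.96 ± 1.03 and 0.46 ± 0.92. Il7r, the receptor of interleukin 7, stood at 183, 107 and 404 CPM in anti-PD-L1 PD-1+ Tregs against 45.4 and 7.74 CPM under isotype. The arms did not overlap, and the change did not pass in edgeR. Both Il2rb and Il7r were above 0 in all 3 populations, and the change of Il7r in PD-1+ Tregs was larger than that of Ifngr1, with a wider error.

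Genes most like Ifngr1 over the 14 libraries were found by Pearson's r on log2(CPM + 2) among 8833 other genes with a mean of at least 10 CPM. Since the libraries share arms and populations, r here restates in part the treatment difference by which Ifngr1 was chosen. The median r was -0.039 and 8 genes were over 0.8. The highest were Arl6ip1 (0.908), an endoplasmic reticulum membrane protein, Ly6a (0.886), Icos (0.878), a costimulatory receptor, Ctla2a (0.857), a cathepsin inhibitor, Runx2 (0.852), Lxn (0.843), a carboxypeptidase inhibitor, Gzmb (0.824), the protease granzyme B, S100a6 (0.814), a calcium-binding protein, Snx20 (0.7997), a sorting nexin, and Prelid1 (0.795), a mitochondrial lipid transfer protein. The lowest were Rps29 (-0.886) and Rps14 (-0.850), both of the small ribosomal subunit, Hmgn1 (-0.878), a nucleosome-binding protein, Phpt1 (-0.831), a phosphohistidine phosphatase, and Hspe1 (-0.830), a mitochondrial chaperonin.

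All 10 most alike genes had higher group means under anti-PD-L1 in each population. Icos averaged 556, 544 and 388 CPM in anti-PD-L1 PD-1+ Tregs, PD-1- Tregs and CD4 T cells, against 227, 245 and 159 CPM under isotype, log2 changes of 1.29, 1.15 and 1.29. Ly6a averaged 385, 476 and 447 CPM under anti-PD-L1 against 124, 147 and 187 CPM under isotype. Gzmb held 2821 and 3238 counts in anti-PD-L1 PD-1- Tregs against 0 and 0 under isotype. As likeness to Ifngr1 already picks genes that differ between the arms, these values are descriptions. Among the 5 least alike, all group means were lower under anti-PD-L1; Hmgn1 averaged 68.4, 67.5 and 78.0 CPM under anti-PD-L1 against 136, 143 and 163 CPM under isotype.

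On chromosome 10 Ifngr1 lies among genes that were silent or low in these cells. Il22ra2, a soluble receptor of interleukin 22 and the next gene, 11.8 kb after Ifngr1, had 0 counts in every library. Il20ra, 101.4 kb after it and another class II receptor, had counts in 1 library only, at most 48, and Slc35d3, 237.7 kb after it, in 3, at most 154. Before it, Gm20139 (384 kb) reached 2 counts and Olig3 (233.3 kb) had counts in 2 libraries.

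The one neighbour found in all 14 libraries was Gm33104, a long non-coding RNA 84.6 kb before Ifngr1 (19486715 to 19507318). It averaged 28.0 ± 35.3, 30.1 ± 19.0 and 20.6 ± 7.16 CPM in anti-PD-L1 PD-1+ Tregs, PD-1- Tregs and CD4 T cells (SD, n = 3, 2 and 3), against 4.25 ± 2.88, 11.7 ± 2.49 and 2.66 ± 0.89 CPM under isotype (n = 2 each). Its log2 changes of 2.72 ± 1.59, 1.36 ± 1.58 and 2.95 ± 1.61 did not pass (edgeR adjusted p = 0.693, 0.792 and 1.00). The arms overlapped in PD-1+ Tregs, where 1 treated library reached 68.8 CPM, and separated in the other populations.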

How the data were processed

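RNA of sorted T cells was sequenced with Smart-seq2, which adds no molecular identifiers. The authors deposited raw read counts per gene and RPKM values, per the file headers. Tools named in the submitters' processing notes are SAMtools, DESeq2, HOMER 3.12 and HISAT2 2.0.4, with the build mm10; annotation, counting settings and strand use: not given in the sources used here. Counts were tested with edgeR 4.0.16 in R 4.3.3, using filterByExpr at a minimum count of 10, TMM scaling and robust quasi-likelihood tests in 1 fit of 6 group means over 14 libraries. P-values were adjusted by Benjamini-Hochberg over all 13434 genes, with a threshold of 0.05. CPM carries no prior count. The SE of a log2 change is its absolute value divided by the root of F. Ifngr1 and the gene lists were chosen with earlier results of these data known. Named genes are the signalling list, called genes and the 4 most abundant by RPKM of the target and receptor lists, the 10 most and 5 least alike genes, and the 3 nearest neighbours on each side. Alternatives were DESeq2 1.42.0, limma 3.58.1 (voom, and log2(RPKM + 1) or log2(RPKM + 0.1)), DESeq2 size factors, no filter, only the libraries compared, each library left out, and a replicate block; omission of the libraries with Y-linked reads and library sizes from T cell genes were also run. 1 listed gene is not reported here by name. Tests were checked on simulated data drawn with less spread between replicates than these libraries had. How the tests behave at the real spread was not checked.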

Additional observations from a re-analysis of the deposited data

Results flagged for a closer look

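Between PD-1+ and PD-1- Tregs, 3 of the named genes had treatment changes that differed by edgeR's interaction test, out of 41 named genes tested in 3 such contrasts; Ifngr1 itself was not tested. Of all genes, 1.46% passed this contrast, and none of the 48 pathway genes did in 9 of 14 fits with 1 library left out. H2-D1 was named because it passed in PD-1- Tregs and Gzmb for its likeness to Ifngr1, so neither is an independent pick. For H2-D1, an MHC class I heavy chain, the change in PD-1+ Tregs minus that in PD-1- Tregs was -1.26 ± 0.28 on the log2 scale (edgeR adjusted p = 0.0481). For Il2rg, the common gamma chain of cytokine receptors, it was 1.40 ± 0.28 (edgeR adjusted p = 0.0319); the gene stood at 4206, 4372 and 4975 CPM in anti-PD-L1 PD-1+ Tregs against 3146 and 2541 CPM under isotype, and at 3597 and 3599 CPM in anti-PD-L1 PD-1- Tregs against 5043 and 6945 CPM under isotype. For Gzmb it was -12.9 ± 2.73 (edgeR adjusted p = 0.0444), a fitted value that depends on the prior count because both isotype PD-1- libraries held 0 counts. Groups of 2 or 3 libraries are too small for a test of single outlying libraries.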

How the results depend on the processing

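The Ifngr1 change was positive under all 11 alternatives and with any 1 of the 14 libraries left out. Since the gene was chosen for its rise, and every treated library lay above every isotype library, this sign is no test. The SE in limma-voom was 0.59, 0.67 and 0.70 in PD-1+ Tregs, PD-1- Tregs and CD4 T cells, against 0.21, 0.22 and 0.21 in edgeR. Leaving out 1 library gave 1.79 to 2.00 in PD-1+ Tregs, 1.72 to 2.23 in PD-1- Tregs and 1.99 to 2.18 in CD4 T cells; without the libraries with Y-linked reads it was 1.71 in PD-1- Tregs. The difference of PD-1+ over PD-1- Tregs, 0.020 and never past the threshold, turned to -0.033 with DESeq2 size factors in edgeR and -0.033 in DESeq2, and to -0.012 on log2 RPKM with either pseudocount, and was 0.36 with library sizes from T cell genes (adjusted p = 0.241); leaving out 1 library gave -0.099 to 0.18. PD-1- Tregs over CD4 T cells passed in DESeq2 (0.46, adjusted p = 0.0164) and in no other alternative; leaving out 1 library gave 0.20 to 0.47 (adjusted p 0.0665 to 0.382). PD-1+ Tregs over CD4 T cells ran from 0.30 to 0.78, highest with library sizes from T cell genes, a scaling that moved the median gene by 0.31 for PD-1+ over PD-1- Tregs and by -0.11 for the treatment in CD4 T cells.

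The count of pathway genes that passed was 3 in DESeq2 in PD-1+ Tregs and 1 in limma-voom in CD4 T cells, against 0 in edgeR. In PD-1- Tregs, against 5, it was 12 in DESeq2 and 0 with only the libraries compared, which leaves few degrees of freedom, and 3 to 6 with 1 library left out, 3 without either isotype CD4 library. The 12 in DESeq2 include Parp14, which fell, and Ifng, which had counts in 1 library of PD-1- Tregs only. With 1 library left out, B2m, H2-D1 and Wars passed in all 14 fits, Socs1 in 12 and Igtp in 7. The count of pathway genes whose change differed between populations, 1 in edgeR, was 2 with DESeq2 size factors, 2 without a filter, 11 in DESeq2, 3 on log2(RPKM + 1), 5 on log2(RPKM + 0.1), and 0 to 6 with 1 library left out. The causes were not tested.

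Whether replicate numbers pair libraries could not be told. Deviations of same-numbered libraries from their group means correlated at -0.042 to 0.10. With 2 or 3 libraries a group, such values cannot exclude a pairing. The main fit and the permutation between populations take libraries as unpaired. A replicate block by title number gave -0.018 for PD-1+ over PD-1- Tregs, 2 pathway genes in PD-1- Tregs and 0 that differed between populations, and by the bracketed number 2 and 0. Adjusted p by title and by bracketed number was 0.0534 and 0.0641 for Socs1, 0.0655 and 0.0676 for Igtp, and 0.0541 and 0.0679 for Wars. Bracketed number 3 marks all libraries with Y-linked reads and no others. The same libraries had the lowest values of the X-linked RNA Xist. It stood at 0.974, 59.9 and 17.9 CPM in PD-1+ Tregs, PD-1- Tregs and CD4 T cells, against 104 to 668 CPM in the other libraries. Whether the libraries of number 3 share a source is not given in the labels and was not tested. The numbers disagree with each other in anti-PD-L1 PD-1- Tregs. With 2 or 3 libraries a group, small differences between populations were not detectable.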
